A study of Mus musculus with 8 samples.

Results

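The 10 genes described here mark cytotoxic T cells and natural killer (NK) cells and were followed in mouse skin with and without hair loss. They were chosen by name, for their role in the cells held to attack hair follicles in alopecia areata, in a choice whose rule uses no measured value but which was made with earlier results of these data known: Cd3e, Cd3g, Cd8a, Cd4, Klrk1, Gzma, Gzmb, Prf1, Nkg7 and Ifng. All 10 of 10 were found among the 20128 genes with a symbol on the array, on 13 probes, with 2 probes each for Cd8a, Cd4 and Nkg7.

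A T cell reads its target through the T cell receptor, whose signal is carried by the CD3 chains (Cd3e, Cd3g) and sharpened by a coreceptor, CD8 (Cd8a) on cytotoxic cells or CD4 (Cd4) on helper cells. NKG2D (Klrk1) is an activating receptor of NK cells and cytotoxic T cells that binds ligands displayed by stressed cells. On contact the cell empties granules holding perforin (Prf1), which opens the target's membrane, and granzymes (Gzma, Gzmb), proteases that kill it, and it secretes interferon gamma (Ifng). Growing hair follicles normally keep such cells out, and alopecia areata is viewed as a loss of that immune privilege.

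RNA from 8 skin samples was labelled with Cy3 and hybridised to Agilent single-colour mouse arrays, 1 array a sample. The groups were hair loss skin of Cchcr1 mutants (n = 2), normal skin of Cchcr1 mutants (n = 4) and, from wild type mice, normal skin (n = 2). All were C57BL/6N, and the mutants came from Cas9 editing of Cchcr1, which encodes a coiled-coil protein. The labels used here give no age, sex, body site, number of founders or description of the allele. Sample titles carry a number, Mutant097 (hair loss replicate 1, mutant normal skin replicates 1 and 2), Mutant113 (hair loss replicate 2, mutant normal skin replicates 3 and 4) or Wild001 (both wild type samples), which the labels do not explain. Whether samples are separate animals is therefore unknown, the p-values measure only the spread between these samples, which may be technical, and genotype cannot be told apart from title number in comparisons with the wild type.

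Levels are log2 processed intensities minus the 75th percentile of the array, so that 0 is that percentile. They compare arrays on 1 probe, not probes with each other. The 75th percentile itself was an intensity of 83.1 to 211, lowest for wild type replicate 1 and mutant normal skin replicate 2 (114) and highest for hair loss replicate 2, and each array had 25421 to 30205 probes well above its background. All 8 skin markers on the array, among them Krt5, Lor and Col1a1, were well above background on all 8 arrays. The probe for Cchcr1 read 0.49 and -0.01 in hair loss skin, 0.32, 0.18, 0.03 and -0.04 in mutant normal skin, against -0.03 and -0.07 in wild type skin, and the labels do not say whether the edit lies in the sequence it covers. In bulk skin, fewer cells of a type and less RNA per cell cannot be told apart.

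None of the 10 genes differed between groups past the threshold on the probe that represents it, the one with the highest mean. A probe was tested when well above background on at least 2 arrays, which let 7 of the 10 genes in and left out Cd8a, Klrk1 and Gzmb. Between hair loss and mutant normal skin, limma called 0 of the 7 at a Benjamini-Hochberg adjusted p under 0.05, where 0% of all 30417 probes tested were called, and 0 of 7 had an unadjusted p under 0.05, against 5.20% of all probes. Between mutant normal skin and wild type it called 0 of 7, against 0.694% of all probes, and 0 had an unadjusted p under 0.05 (17.2% of all probes). Between hair loss and wild type it called 0 of 7, against 1.42%, again with 0 at an unadjusted p under 0.05 (24.8%). The median log2 difference of the 7 was 0.02, -0.40 and -0.26 in these comparisons, beside -0.01, -0.04 and -0.06 over all probes. By title number, 0 of 7 were called in any of the 8 comparisons run. At an unadjusted p under 0.05 there were 0 for the lesion within Mutant097 (13.0% of all probes) and within Mutant113 (4.80%), and 1 for Gzma in normal skin of Mutant097 against wild type (20.5%), 1 for Nkg7 in normal skin of Mutant113 against wild type (19.5%), 1 for Gzma in hair loss of Mutant097 against wild type (30.0%) and 0 in hair loss of Mutant113 against wild type (18.4%). These counts use 1 probe a gene, and a second probe for Cd4 behaved otherwise.

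**Figure D1:**
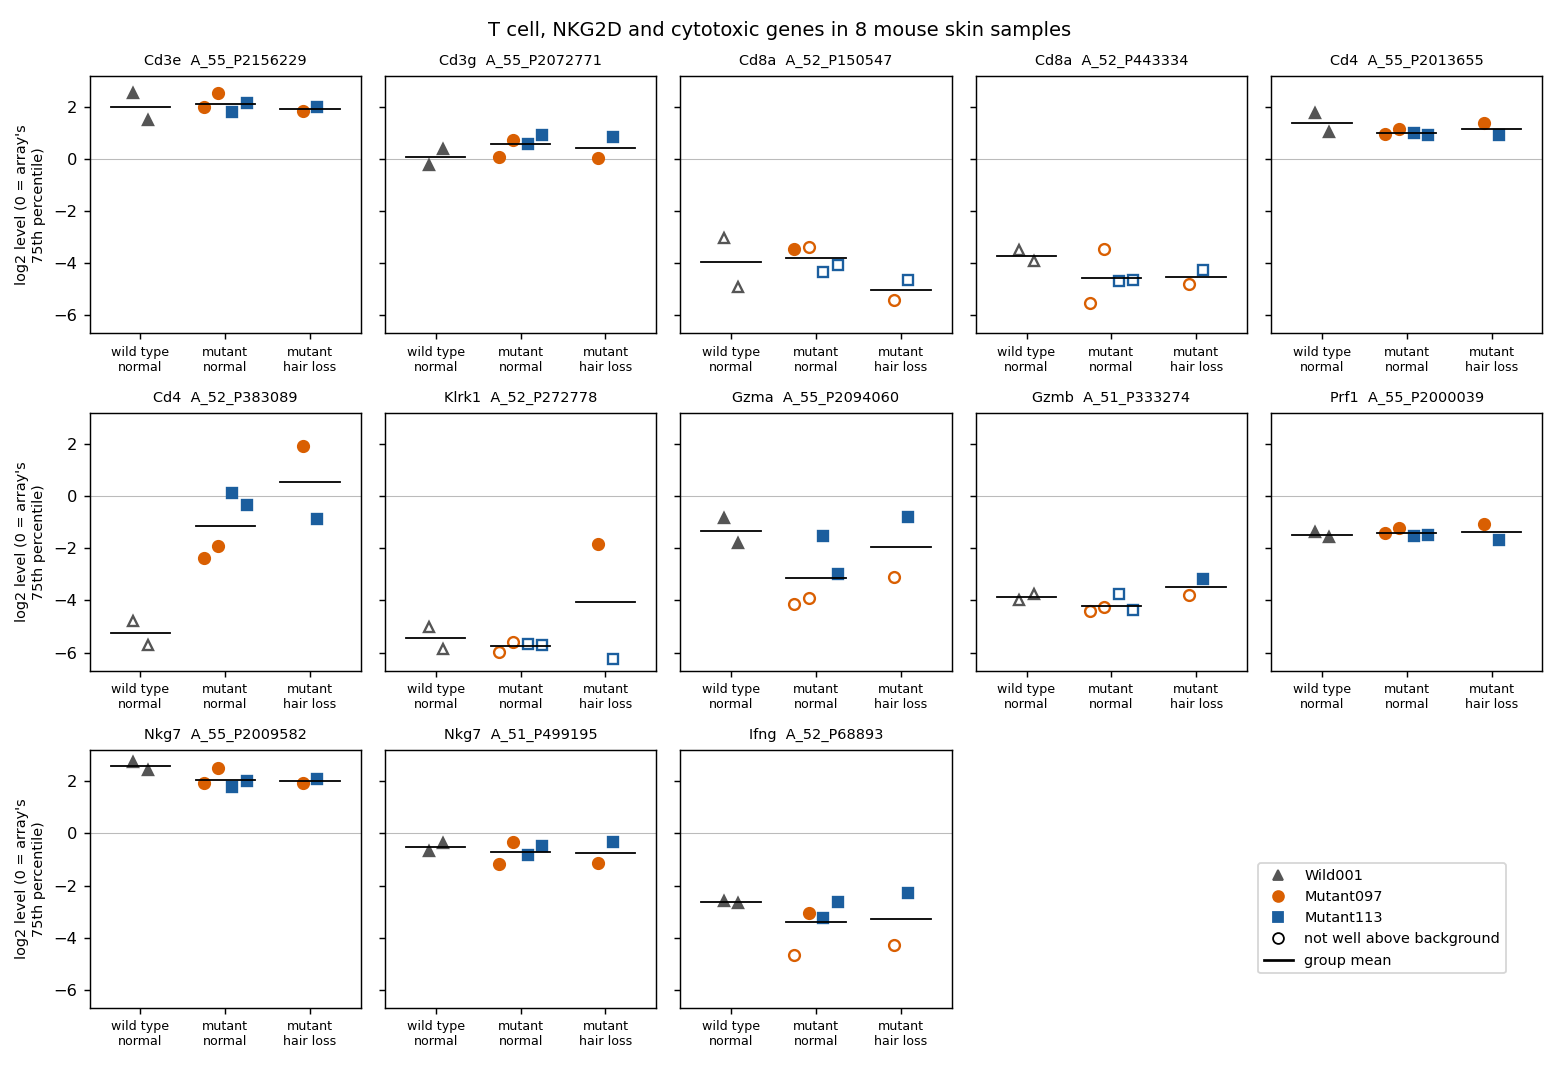
Log2 level of each of the 13 probes in the 8 samples, by group on the x axis, with 0 at the array's 75th percentile; colours and shapes mark the title number, open symbols a probe not well above background, and bars the group mean. Cd3e, Cd3g, the first Cd4 probe, Prf1 and Nkg7 sit in a narrow band in all groups, while the second Cd4 probe spans from -5.70 to 1.93 and Klrk1 is well above background in 1 hair loss sample.

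The CD3 chains were measured in every sample. Cd3e (A_55_P2156229), the epsilon chain, read 1.84 and 1.99 in the hair loss samples, 2.00, 2.55, 1.80 and 2.16 in mutant normal skin, against 2.52 and 1.51 in wild type skin. The groups overlapped entirely, and the wild type pair alone spanned most of the range. Hair loss differed from mutant normal skin by -0.21 (95% interval -0.95 to 0.52, adjusted p = 0.999 by limma) and mutant normal skin from wild type by 0.11 (-0.63 to 0.84, adjusted p = 0.886). A change of Cd3e inside these intervals was not detectable with this number of arrays.

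Cd3g (A_55_P2072771), the gamma chain, read 0.05 and 0.84 in hair loss, 0.07, 0.75, 0.58 and 0.95 in mutant normal skin, against -0.23 and 0.39 in wild type. Here the hair loss samples stood at opposite ends, replicate 1 with the low samples and replicate 2 with the high ones. The difference was -0.14 between hair loss and mutant normal skin (95% interval -0.91 to 0.63) and 0.51 between mutant normal skin and wild type (-0.26 to 1.28, adjusted p = 0.470). Both chains belong to 1 receptor complex, yet across the 8 samples Cd3e and Cd3g did not move together (Pearson r = -0.04, a description over arrays that share a slide). Cd3e was highest in mutant normal skin replicate 2 and wild type replicate 1, the arrays with the lowest 75th percentile, and the part of array brightness in this was not tested.

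Cd8a, the coreceptor of cytotoxic T cells, was at the edge of detection. Of its probes, A_52_P150547 was well above background only in mutant normal skin replicate 1 (-3.46) and A_52_P443334 on 0 arrays. The partner chain Cd8b1 was well above background on 0 of 8 arrays as well, so neither chain of CD8 could be compared between groups. That limits what these arrays can show of CD8 cells in hair loss skin: the intensities of A_52_P150547 lay between 2.93 and 14.7 on every array.

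Cd4, the helper coreceptor, which macrophages and Langerhans cells can also carry, was measured by a pair of probes that gave different pictures. The brighter one, A_55_P2013655, read 1.37 and 0.91 in hair loss, 0.96, 1.14, 1.02 and 0.91 in mutant normal skin, against 1.76 and 1.05 in wild type. Its groups overlapped, with a difference of 0.13 between hair loss and mutant normal skin (95% interval -0.42 to 0.69) and of -0.40 between mutant normal skin and wild type (-0.95 to 0.16, adjusted p = 0.432). The 8 genes of myeloid and Langerhans cells were all well above background on all arrays. Their summed levels (linear scale, 1 at the 75th percentile) ran from 242 to 304 in hair loss and 232 to 422 in mutant normal skin. In wild type they ran from 394 to 463. In the 3 group comparisons limma called 0 of the 8, beside 0%, 0.694% and 1.42% of all probes. At an unadjusted p under 0.05 there were 1, 4 and 2, beside 5.20%, 17.2% and 24.8% of all probes. Median differences of the 8 were 0.07, -0.70 and -0.52, beside -0.01, -0.04 and -0.06 over all probes.

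The dimmer Cd4 probe, A_52_P383089, was nearly silent in wild type skin and bright in the mutants. It read 1.93 and -0.87 in hair loss, -2.36 and -1.92 in mutant normal skin of Mutant097, 0.14 and -0.35 in mutant normal skin of Mutant113, and -4.79 and -5.70 in wild type, where it was not well above background. As intensities, that is 477 and 116 in hair loss, 31.5, 30.2, 190 and 135 in mutant normal skin, against 3.001 and 3.081 in wild type. Every mutant sample lay above both wild type samples, a separation that 13.6% of all probes tested showed for mutant normal skin and 24.8% for hair loss. Against the lowest level well above background in wild type, mutant normal skin was at least 4.76-fold and hair loss skin at least 14.99-fold higher. The probe passed the filter through the mutant arrays alone. limma tested the measured differences over all 8 arrays, not these bounds (adjusted p = 0.113 and 0.0503), and neither passed the threshold. Over 15 alternatives the mutant normal skin difference ran from 0.93 to 5.14, and 14 fell short of the threshold. The hair loss difference ran from 2.00 to 7.81, and 10 of 15 fell short, while the fit without mutant normal skin replicate 3 passed (adjusted p = 0.0402). Both differences passed with the slide row as a block (0.0320 and 0.0201). Both hair loss arrays lie in row 1 and both wild type arrays in row 2. Mutant normal skin lies in row 1 for Mutant097 and in row 2 for Mutant113, so that block cannot separate row from title number.

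Split by title number, the probe gave unlike values. In the fit of 5 combinations of group and title number, which has 1 hair loss sample for each number and takes its spread from the pairs of normal samples, so that the lone hair loss sample is assumed to vary as those pairs do, hair loss of Mutant097 was higher than its own normal skin by 4.07 (SE 0.45, adjusted p = 0.0384), in a comparison where 0.628% of all probes were called. Within Mutant113 the difference was -0.76 (SE 0.45, adjusted p = 0.9998), where 0.00329% of probes were called. The difference between these lesion effects was -4.83 (SE 0.64, adjusted p = 0.0937), not past the threshold, in a comparison where 0% of probes were called and 9.50% had an unadjusted p under 0.05. Against wild type, the same fit called the probe higher in all 4 mutant combinations: at least 2.35-fold in normal skin of Mutant097 (adjusted p = 0.0362), at least 9.63-fold in normal skin of Mutant113 (adjusted p = 0.00315), at least 39.5-fold in hair loss of Mutant097 (adjusted p = 0.00218) and at least 5.69-fold in hair loss of Mutant113 (adjusted p = 0.0177). The shares of all probes called in these were 0.999%, 3.26%, 6.03% and 1.94%. With normexp background correction, normal skin of Mutant097 and hair loss of Mutant113 no longer differed past the threshold (0.41 and 0.93, adjusted p = 0.573 and 0.134).

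Hair genes were also bright in the mutants. Krt34 (A_51_P380991), a keratin of the hair shaft, read 8.16 and 6.57 in hair loss, 3.65, 4.33, 7.28 and 6.87 in mutant normal skin, against -4.99 and -5.33 in wild type, where it was not well above background. From high to low, the 6 mutant arrays stood in 1 order on Krt34, on the second Cd4 probe and on Klre1 (A_55_P2071716), an NK cell receptor gene: hair loss replicate 1, mutant normal skin replicates 3 and 4, hair loss replicate 2, then mutant normal skin replicates 2 and 1. The other 4 hair genes, Krt71, Tchh, Krt25 and Krt31, each had another order, though with hair loss replicate 1 and mutant normal skin replicate 3 highest. On Krt34, Klre1 and this Cd4 probe neither wild type sample was well above background, so these have no order. Each of these probes passed the filter through the mutant arrays alone. The first Cd4 probe, on which wild type replicate 1 was highest, did not follow that order. The summed level of 5 hair shaft and inner root sheath genes was 2216 and 1028 in hair loss, 384 to 1507 in mutant normal skin, against 1.31 and 4.35 in wild type, with all 5 called higher in both mutant groups than in wild type. Of the alternatives, 3 ended the call of Krt34 for mutant normal skin (without wild type replicate 1 or 2, adjusted p = 0.0957 and 0.0871, and with title numbers averaged, 0.440) and 4 for hair loss (also without hair loss replicate 1, 0.0907). For Krt31, 4 ended it for mutant normal skin (without wild type replicate 1 or 2 or mutant normal skin replicate 4, 0.158, 0.103 and 0.0748, and averaged, 0.578) and 4 for hair loss (without wild type replicate 1 or 2 or hair loss replicate 1, 0.0996, 0.0690 and 0.131, and averaged, 0.201). The part of these genes in the second Cd4 probe was not tested. Among tested probes, after its values were seen, the most alike in pattern over the 8 arrays were those for Zfp707 (Pearson r = 0.998), Dnah6 (0.998) and Olfr1347 (0.997), none of which is a T cell or myeloid marker of the lists.

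Klre1 was also the only gene called in a group comparison among the 7 lists of further T and NK cell genes. It read 2.47 and -0.52 in hair loss, -1.89, -1.56, 0.34 and -0.05 in mutant normal skin, against -5.18 and -5.48 in wild type, not well above background there. Hair loss was at least 20.4-fold higher than wild type (adjusted p = 0.0378), and the adjusted p ranged from 0.0185 to 0.257 over its 15 alternatives, of which 7 ended the call. Among these were the fits without hair loss replicate 1 (4.81, adjusted p = 0.155), mutant normal skin replicate 4 (0.0551), wild type replicate 1 (0.177) and wild type replicate 2 (0.0788). The lesion effect within Mutant097 was 4.19 (SE 0.29, adjusted p = 0.0271) and within Mutant113 -0.66 (SE 0.29), each from 1 hair loss sample assumed to vary like the pairs of normal samples. Among other NK receptors of the list, named after their values were seen, Klrd1 was well above background on all 8 arrays, at -1.44 and -0.60 in hair loss, -1.18, -0.67, -1.39 and -1.16 in mutant normal skin, against -1.46 and -0.85 in wild type. Klrg1 was so on 3 of 8 arrays, the 3 of Mutant113, and Ncr1, Klrc1 and Klrb1c on 0 of 8.

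**Figure D2:**
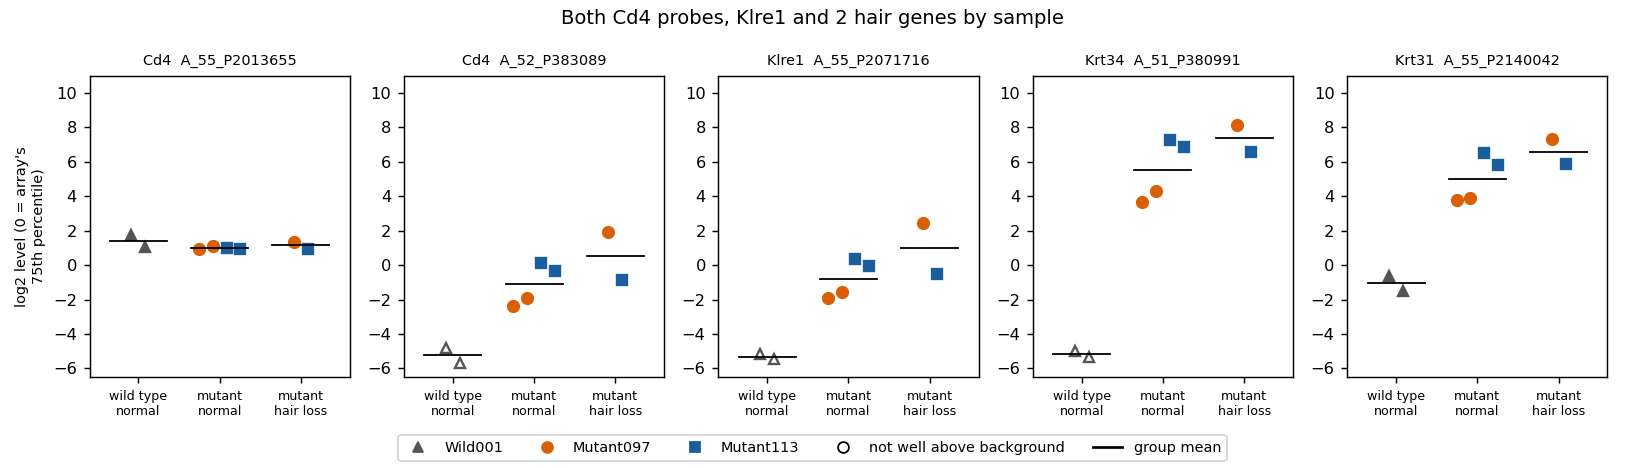
Log2 level in the 8 samples, by group on the x axis, of both Cd4 probes, Klre1 and the hair keratin genes Krt34 and Krt31, with 0 at the array's 75th percentile; open symbols are not well above background and bars are group means. The second Cd4 probe, Klre1 and Krt34 put the 6 mutant samples in the same order, from hair loss replicate 1 (1.93, 2.47 and 8.16) down to mutant normal skin replicate 1 (-2.36, -1.89 and 3.65), with both wild type samples at background, and Krt31 and the first Cd4 probe do not share that order.

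Among the effector genes, 4 were measured in some samples and sat at background in others: Klrk1, Gzma, Gzmb and Ifng. Their promoters are given here because samples differed in whether these genes were detected at all. Of the 10 genes, 9 have an entry in the RefSeq promoter table (GRCm38.p6, 250 bases before to 50 after the start), and Cd4 is not listed in it. Each window is printed 5′ to 3′ on the strand of the gene, with capitals for matches on either strand to GGTGTGA (T-box factors), TGTGGT (RUNX factors), TGANTCA (AP-1) and TATAAA (a core promoter element). The windows are chr6:129623815-129624114 (minus strand) for Klrk1, chr13:113100932-113101231 (minus strand) for Gzma, chr14:56262285-56262584 (minus strand) for Gzmb and chr10:118440796-118441095 (plus strand) for Ifng.
Klrk1: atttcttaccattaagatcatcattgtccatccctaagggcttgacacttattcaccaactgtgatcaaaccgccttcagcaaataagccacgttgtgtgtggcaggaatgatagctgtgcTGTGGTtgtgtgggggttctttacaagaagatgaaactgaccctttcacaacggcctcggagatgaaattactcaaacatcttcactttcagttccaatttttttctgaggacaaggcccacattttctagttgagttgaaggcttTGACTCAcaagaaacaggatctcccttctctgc
Gzma: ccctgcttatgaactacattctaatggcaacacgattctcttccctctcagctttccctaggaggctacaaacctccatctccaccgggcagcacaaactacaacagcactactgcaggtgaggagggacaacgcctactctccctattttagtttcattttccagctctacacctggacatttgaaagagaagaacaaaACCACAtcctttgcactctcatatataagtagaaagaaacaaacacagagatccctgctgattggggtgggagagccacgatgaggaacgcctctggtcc
Gzmb: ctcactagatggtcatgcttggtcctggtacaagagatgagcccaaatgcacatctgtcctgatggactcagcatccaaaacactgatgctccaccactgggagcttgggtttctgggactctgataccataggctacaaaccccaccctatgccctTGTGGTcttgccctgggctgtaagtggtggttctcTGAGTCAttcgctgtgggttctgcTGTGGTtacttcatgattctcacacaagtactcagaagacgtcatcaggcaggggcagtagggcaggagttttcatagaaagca
Ifng: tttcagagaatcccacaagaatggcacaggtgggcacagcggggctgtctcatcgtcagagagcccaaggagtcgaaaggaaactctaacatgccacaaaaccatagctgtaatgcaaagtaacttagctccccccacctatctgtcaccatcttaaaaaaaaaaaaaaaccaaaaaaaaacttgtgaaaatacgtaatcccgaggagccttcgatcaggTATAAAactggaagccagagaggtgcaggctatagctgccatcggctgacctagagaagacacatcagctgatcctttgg

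The RUNX letters, read by a family that includes regulators of cytotoxic T cell genes, stood in 5 of the 9 windows, those of Klrk1, Gzma, Gzmb, Prf1 and Nkg7, and in 16.8% of all 32851 promoters of the table. Gzmb held 2 such matches, at positions -93 and -34 counted from the start site, with an AP-1 match at -58. Klrk1 held a RUNX match at -129 and an AP-1 match at 17, and AP-1 letters were in 7.8% of all promoters. Gzma held its RUNX match, on the opposite strand, at -50. Ifng held TATAAA at -30 (13.6% of all promoters), and Nkg7 the only T-box match of the 9 (4.0%). The windows of Cd3e, Cd3g and Cd8a held none of the 4 motifs. These are matches of letters, not shown sites, and the matches do not overlap each other.

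Klrk1 (A_52_P272778), the NKG2D receptor, was well above background in 1 sample of 8, hair loss replicate 1, at -1.85. The other 7 samples were not well above background, hair loss replicate 2 among them, with intensities of 2.39 to 3.42 against 34.8. Hair loss of Mutant097 was thus at least 3.598-fold above its normal skin and at least 2.88-fold above wild type, with 1 sample on the high side and no test, since the probe did not reach the filter. That sample is also the highest on Klre1, the second Cd4 probe and Krt34, and the part of what they share was not tested.

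The adaptors that carry the NKG2D signal were measured in all samples. Hcst (DAP10) read 0.61 and 1.31 in hair loss, 0.28, 1.18, 0.56 and 0.93 in mutant normal skin, against 1.16 and 1.14 in wild type. Tyrobp (DAP12), which myeloid cells carry as well, read 3.09 and 4.17 in hair loss, 3.62, 3.94, 3.17 and 3.39 in mutant normal skin, against 4.59 and 4.57 in wild type. In the 3 group comparisons neither passed the threshold. In the fit by title number, the difference of Tyrobp from wild type was -1.49 in hair loss of Mutant097 and -1.295 in normal skin of Mutant113. In normal skin of Mutant113 limma called the difference (SE 0.19, adjusted p = 0.0347), in a comparison where 3.26% of all probes were called. The difference in hair loss of Mutant097 rests on 1 hair loss sample, so only its size is given and not its test. Of the ligands, Raet1e was well above background on 4 arrays and Ulbp1 and H60b on 0.

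Gzma (A_55_P2094060), granzyme A, was at background throughout Mutant097. It was not well above background in any Mutant097 sample, at -3.11 in hair loss and -4.15 and -3.90 in normal skin. In Mutant113 it read -0.79 in hair loss and -1.53 and -2.97 in normal skin, and in wild type -0.84 and -1.81, all well above background. Wild type replicate 1, the dimmest array, was among those that measured it, and the part of brightness was not tested. Normal skin of Mutant113 was at least 2.73-fold above that of Mutant097 (adjusted p = 0.240 by limma), where 0.266% of all probes were called and 15.8% had an unadjusted p under 0.05, and Gzma was the only 1 of the 7 genes with an unadjusted p under 0.05 there. Wild type was at least 5.17-fold above normal skin of Mutant097 (adjusted p = 0.0947) and at least 3.45-fold above its hair loss (adjusted p = 0.150), and none of these passed the threshold. Grouped by phenotype, hair loss minus mutant normal skin was 1.19 (95% interval -0.81 to 3.18), and it was 0.024 without hair loss replicate 2 and 2.35 without hair loss replicate 1.

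Gzmb (A_51_P333274), granzyme B, was well above background only in hair loss replicate 2, at -3.18, and read -3.78 in hair loss replicate 1. The other 6 samples lay between -4.40 and -3.73. Within Mutant113 hair loss was at least 1.68-fold above normal skin, from 1 sample and without a test. Mast cells can carry granzyme B, and that sample was also the highest in mast cell genes: the summed level of 5 of them was 109 there and 38.0 in hair loss replicate 1, 37.5 to 54.3 in mutant normal skin, against 33.5 and 36.7 in wild type. All 5 were measured in it, and Fcer1a alone was not well above background in both wild type samples and in mutant normal skin replicate 2. It was also the brightest array, and the part of either in the Gzmb reading was not tested. In hair loss replicate 1 the mast cell genes did not move as 1. Cpa3 (1.77) and Cma1 (0.31) lay below both wild type samples there, and Mcpt4 (4.96), Kit (0.95) and Fcer1a (-1.73) above both. Of the 5, Kit was called higher in hair loss than in wild type (1.89, SE 0.28, adjusted p = 0.0287), a call that 7 of 16 alternatives ended (adjusted p = 0.0169 to 0.222), among them the fits without either hair loss sample (0.108 and 0.0613), either wild type sample (0.155 and 0.0695) or mutant normal skin replicate 4 (0.0502).

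Prf1 (A_55_P2000039), perforin, had the smallest range of the 9 tested member probes. It read -1.08 and -1.66 in hair loss, -1.40, -1.20, -1.51 and -1.47 in mutant normal skin, against -1.38 and -1.58 in wild type. Hair loss replicate 1 was the highest of all samples and replicate 2 the lowest, so the group mean hid opposite readings. The difference between hair loss and mutant normal skin was 0.02 (95% interval -0.46 to 0.51, adjusted p = 0.999) and between mutant normal skin and wild type 0.08 (-0.40 to 0.57). The probes most like it over the 8 arrays were those of ribosomal protein genes, Rps14 (Pearson r = 0.973), Rps15 (0.967) and Rpl38 (0.961), of 15459 candidates.

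Nkg7 (A_55_P2009582), a membrane protein of cytotoxic granules, had the smallest adjusted p of the 7 tested members in both group comparisons with wild type. It read 1.93 and 2.08 in hair loss, 1.93, 2.51, 1.78 and 2.00 in mutant normal skin, against 2.75 and 2.42 in wild type. Both hair loss samples lay below both wild type samples, as 28.5% of all probes did, with a difference of -0.58 (95% interval -1.21 to 0.06, adjusted p = 0.238). Mutant normal skin differed from wild type by -0.53 (-1.08 to 0.02, adjusted p = 0.306). Its second probe, A_51_P499195, read -1.14 and -0.35 in hair loss, -1.16, -0.33, -0.85 and -0.49 in mutant normal skin, against -0.69 and -0.37 in wild type, with overlap and a difference of -0.22 between hair loss and wild type (-1.05 to 0.62). The highest readings of the main probe were again in wild type replicate 1 and mutant normal skin replicate 2, the dimmest arrays, and the part of brightness was not tested.

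Ifng (A_52_P68893), interferon gamma, was at background in hair loss replicate 1 (-4.27) and mutant normal skin replicate 1 (-4.69), both Mutant097. It was measured in the third Mutant097 sample (-3.04), in hair loss replicate 2 (-2.28), in normal skin of Mutant113 (-3.24 and -2.62) and in wild type (-2.60 and -2.67). The hair loss samples again stood apart, replicate 2 highest of all and replicate 1 at background, and the difference from mutant normal skin was 0.12 (95% interval -1.44 to 1.67). Mutant normal skin differed from wild type by -0.76 (-2.31 to 0.80, adjusted p = 0.594). Tbx21, the gene of T-bet, a T-box factor that drives Ifng, was named after its values were seen and was well above background on 4 of 8 arrays, hair loss replicate 2 (-2.96), mutant normal skin replicates 3 and 4 (-3.46 and -2.76) and wild type replicate 2 (-2.53), and on 0 of the 3 arrays of Mutant097.

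The interferon gamma pathway downstream showed 0 of 12 tested genes called in each of the 3 group comparisons, beside 0%, 0.694% and 1.42% of all probes. At an unadjusted p under 0.05 there were 0, 1 and 1, beside 5.20%, 17.2% and 24.8% of all probes. Ifngr1, the receptor chain that binds the cytokine, read 3.94 and 3.78 in hair loss, 3.84, 4.38, 3.78 and 3.96 in mutant normal skin, against 4.14 and 4.26 in wild type, and hair loss lay below both wild type samples, as 28.5% of all probes did. Irf1, an early transcription factor of the response, read 2.89 and 3.76 in hair loss, 2.86, 3.23, 3.16 and 3.37 in mutant normal skin, against 3.64 and 4.06 in wild type. The list's median difference was 0.15 between hair loss and mutant normal skin, -0.32 between mutant normal skin and wild type, and -0.37 between hair loss and wild type. Over all probes these medians were -0.01, -0.04 and -0.06.

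**Figure D3:**
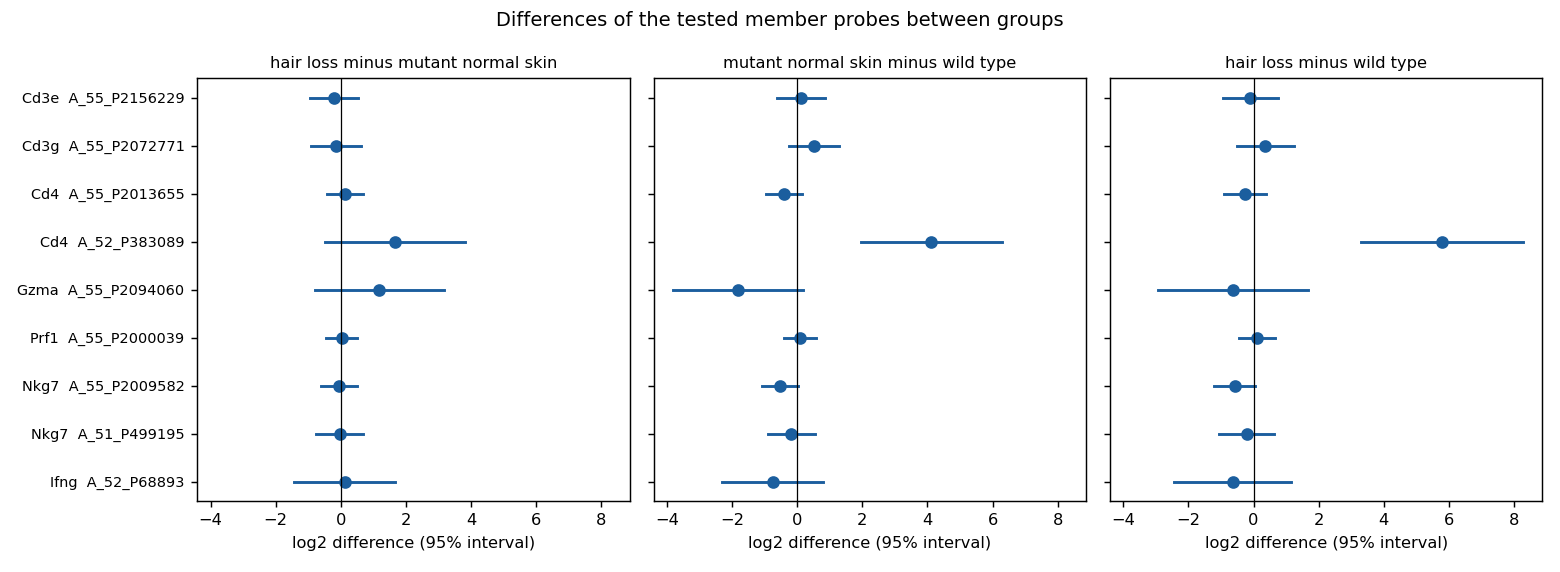
Log2 differences of the 9 tested probes in the 3 group comparisons, with 95% intervals from limma on the x axis and probes on the y axis. The interval of the second Cd4 probe lies above 0 in the comparisons with wild type before adjustment over all probes, and all other intervals include 0; its wild type samples are not well above background, so its size there is not a measured fold.

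Further T cell genes were counted on lists beside the members. Over all probes tested, 0%, 0.694% and 1.42% were called in the 3 group comparisons, and 5.20%, 17.2% and 24.8% had an unadjusted p under 0.05. Medians over all probes were -0.01, -0.04 and -0.06. With 0% of probes called in the first comparison, a count of 0 there says nothing particular about these genes. Of 14 further genes of the receptor complex and its signalling, 10 were tested and limma called 0 in each of the 3 comparisons, with 0, 0 and 1 at an unadjusted p under 0.05 and medians of 0.07, 0.13 and 0.15. Cd247, the zeta chain, was well above background on 0 arrays. Of 27 further granule and NK cell genes, 26 were on the array and 16 tested; 0, 0 and 1 were called, Klre1 being the latter, with 1, 4 and 3 at an unadjusted p under 0.05 and medians of 0.05, -0.09 and 0.02. Lamp1, a lysosome and granule membrane gene, read 6.99 and 6.74 in hair loss, 7.08, 7.18, 6.69 and 6.77 in mutant normal skin, against 7.47 and 7.25 in wild type. Of 9 interleukin 15 and interleukin 2 axis genes, which feed NK and memory T cells, 8 were tested and 0 called in each comparison (1, 0 and 1 unadjusted, medians 0.0044, -0.14 and -0.094). Of 9 regulatory and checkpoint genes 7 were tested and 0 called (0, 0 and 0 unadjusted, medians 0.14, 0.12 and 0.20). Of 11 genes listed for dendritic epidermal and gamma delta T cells, 6 were matched on the array. The listed receptor genes Tcrg-C1, Tcrg-V5, Trdc and Trdv4 were not among them, so these cells were not measured by their receptor. All 6 matched genes were tested and 0 called (0, 0 and 1 unadjusted, medians -0.23, -0.021 and -0.45). One of these, Fcer1g, read -1.14 in mutant normal skin replicate 2 and 3.98 to 4.98 in the other 7 samples.

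Sample by sample, some of the T cell genes did not stay flat. Cd3d, the delta chain, read 0.17 in hair loss replicate 1 and 1.03 in replicate 2, 0.23 and 1.13 in normal skin of Mutant097, 0.46 and 0.76 in normal skin of Mutant113, and 0.11 and 0.63 in wild type. Lck, the kinase that starts receptor signalling, read 0.19 and 1.09 in hair loss, 0.24 and 0.90 in normal skin of Mutant097, 0.43 and 0.61 in normal skin of Mutant113 and 0.46 and 0.50 in wild type. On both, hair loss replicate 2 and mutant normal skin replicate 2 were the high samples, and hair loss replicate 1 and mutant normal skin replicate 1 were low, with wild type replicate 1 as low on Cd3d. Cd3g and the second Nkg7 probe had the same 2 low mutant samples, and Ifng was at background in them. Cd3e, the first Cd4 probe and Prf1 did not share this order. Thy1, the brightest further T cell gene, varied less over the mutant samples (5.43 to 5.71). On Cd5, named after its values were seen, hair loss replicate 1 (0.27) lay above both normal samples of Mutant097 (-1.07 and -0.05).

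Split by title number, the hair loss sample of Mutant113 read above both of its normal skin samples on 9 of the 10 T cell receptor and signalling genes tested and below both on 0 (median difference 0.41), and that of Mutant097 above both on 2 and below both on 3 (median -0.22), where the median differences over all probes were 0.03 and -0.03. The share of all probes above or below both normal samples was not counted, so whether such counts are unusual on these arrays is not known. For the 5 general leukocyte genes, among them Ptprc, which encodes CD45, the hair loss sample of Mutant113 was above both on 5 (median 0.53), and that of Mutant097 above both on 0 and below both on 1 (0.08). For the 7 tested members, Mutant113 had 3 above both and 1 below both (0.08), and Mutant097 3 above and 2 below (-0.29), of which Gzma was at background in all 3 samples. Other lists stood apart in hair loss replicate 2 as well. Within Mutant113 all 5 mast cell genes lay above both normal samples (median 1.21) and all 5 skeletal muscle genes below both (median -2.68). Against wild type, the median differences of that 1 sample were 1.76 for the mast cell genes and -2.79 for the muscle genes. The summed level of the muscle genes was 158 in hair loss replicate 2, 482 in replicate 1, 376 to 985 in mutant normal skin, against 969 and 1006 in wild type, and the part of tissue makeup in the T cell values was not tested. limma called 0 of these genes in the test of the difference between the lesion effects, in which 0% of all probes were called, and each number has 1 hair loss sample. Hair loss replicate 2 was on the brightest array (211) and replicate 1 on a dimmer one (125), and 8 skin markers shifted by a median of 0.48 in the same contrast, beside 0.58 for the 10 T cell genes and 0.44 for the 7 members. The part of array brightness in this was not tested.

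**Figure D4:**
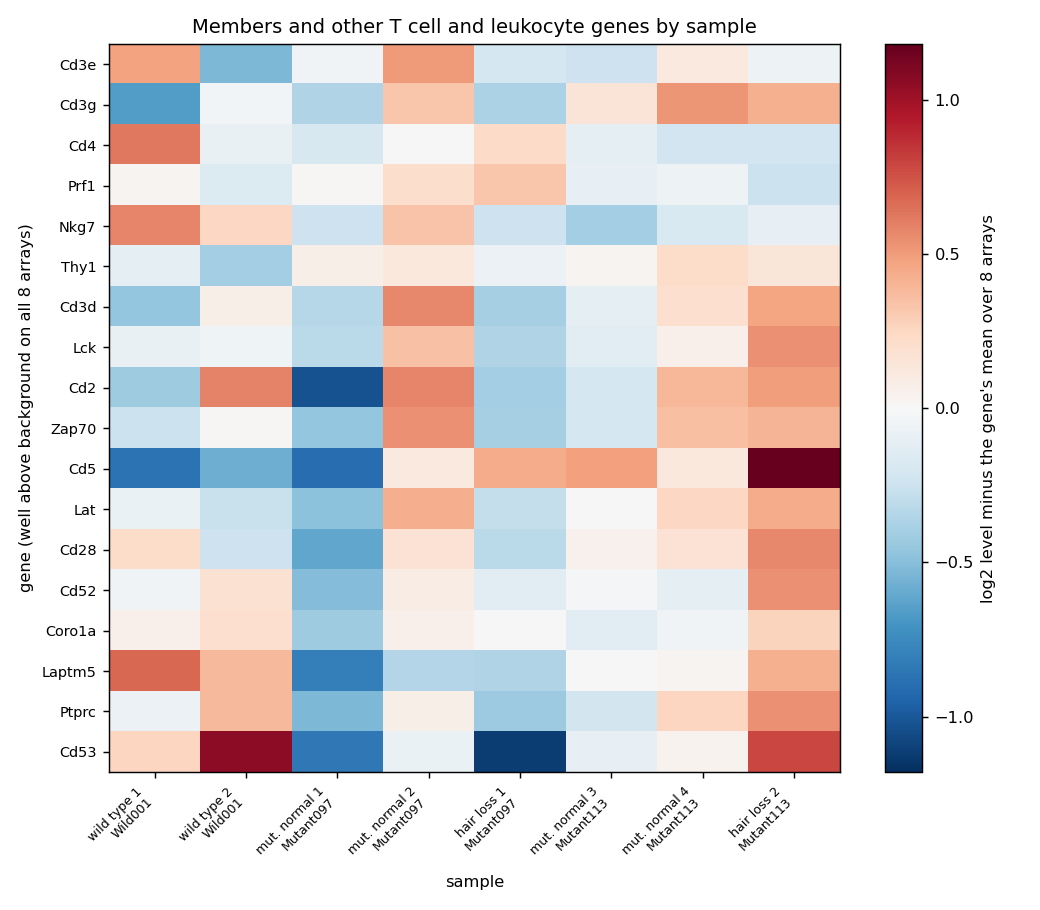
Colour shows the log2 level of each gene minus its own mean over the 8 arrays, for the 5 members and 13 further T cell and leukocyte genes, each well above background on all 8 arrays (rows), by sample (columns). Cd3d, Lck and, named after their values were seen, Zap70 and Lat are low in mutant normal skin replicate 1 and hair loss replicate 1 and high in mutant normal skin replicate 2 and hair loss replicate 2, while Cd3e, Cd4, Prf1 and Nkg7 are not.

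The probes most like each of the other members measured on all arrays, again over 8 arrays and 15459 candidates and as a description, were those of Ribc1 (Pearson r = 0.954), Asap3 (0.930) and Gigyf1 (0.928) for Cd3e. For Cd3g they were Xlr3b (0.965), Tgm5 (0.963) and Fbxw17 (0.958), for the first Cd4 probe Msl1 (0.972), Fam24b (0.9701) and Map6 (0.966), and for Nkg7 Pramel25 (0.987), Idua (0.984) and Tlnrd1 (0.984). No member of the set appears among the nearest probes of another.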

How the data were processed

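RNA from 8 skin samples was measured on 1 slide in 1 scan. Per the file headers, the scanner files hold spot intensity values, background-corrected by Agilent Feature Extraction 11.5.1.1 (named in the submitters' processing notes). The deposited matrix holds log2 values, which equal the log2 intensity shifted by 1 constant per array (largest deviation 2.43e-06 over 55603 probes). Outlier spots (118 to 210 per array) were left out, spots of a probe were averaged, and the 75th percentile was subtracted. Symbols came from RefSeq accessions, and 26546 probes had one; the design's mm9 positions were not used. Tests used limma 3.58.1 (R 4.3.3), in a model of the 3 groups (5 residual and 2.71 prior degrees of freedom) and one of the 5 combinations of group and title number (3 and 2.51), with two-sided tests and Benjamini-Hochberg adjustment over the 30417 probes tested; the script was tested on simulated data. Precision is limited by the number of arrays. "At least" folds divide the mean of the higher group by the mean, over the lower group's arrays, of the lowest level well above background or the probe's own level if higher. An adjusted p printed beside such a fold tests the difference of the measured levels, background readings included, and not the fold itself. The members and lists were chosen with earlier results of these data known. Named are all members, the called and at most 3 brightest genes of each list, and the 3 probes most like each member measured on all arrays; exceptions are marked in the text or are genes at background. Alternatives were the background correction, normalization, deposited matrix, filter, slide row, title number, groups fitted, averaging, probe and each sample left out. Some results on the listed genes are not reported here.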

Additional observations from a re-analysis of the deposited data

Results flagged for a closer look

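On the second Cd4 probe (A_52_P383089), hair loss read above both normal skin samples of its title number in Mutant097 and below both in Mutant113. The lesion effect of Mutant113 minus that of Mutant097 was -4.83, and limma's test of this difference did not pass the threshold (adjusted p = 0.0937; 0.00247 with normexp background correction, and 0.00247 to 0.146 over its 4 alternatives). Prf1 was opposite in the 2 title numbers in the same way, with a difference of -0.39 (adjusted p = 0.750). Each title number has 1 hair loss sample. On the 7 member probes well above background in all 4 mutant normal skin samples, none of these samples stood apart by Dixon's criterion. This group of 4 holds samples of both mutant title numbers.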

How the results depend on the processing

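No member was called on its main probe in any of the 5 comparisons of the design under any alternative run, and the replicate block (title number), possible only for hair loss minus mutant normal skin, called 0 members too (second Cd4 probe 1.65, adjusted p = 0.843). The labels do not state that the number pairs samples. Deviations of same-numbered samples correlated at 0.02 to 0.21 and those of different-numbered samples at -0.21 to -0.02. With 2 hair loss samples, whose deviations mirror each other, the latter are the former with the sign changed. Differences of members near 0 changed sign without passing the threshold. Slide row coincides with title number in mutant normal skin, with both hair loss arrays in row 1 and both wild type arrays in row 2. A row block therefore cannot separate row from title number. With the slide row as a block, hair loss minus mutant normal skin was 0.035 for Cd3g and -0.070 for Prf1, mutant normal skin minus wild type was -0.039 for Cd3e and -0.011 for Prf1, and hair loss minus wild type was 1.15 for Gzma, -0.080 for Prf1 and 0.30 for Ifng. With normexp, the second Nkg7 probe was 0.044 in the first comparison and Prf1 -0.037 and -0.026 against wild type. The second Cd4 probe gave 4.12 and 5.78 against wild type, which is not a measured size because wild type was not well above background, and passed the threshold there with the row block (5.14 and 7.81, adjusted p = 0.0320 and 0.0201) and, for hair loss, under quantile normalization and with only those groups fitted. It fell short in 14 of 15 alternatives for mutant normal skin and in 10 of 15 for hair loss. With each sample left out, hair loss minus mutant normal skin ranged from -0.54 to 0.26 for Cd3g, -0.10 to 0.36 for Cd4, 0.024 to 2.35 for Gzma, -0.27 to 0.32 for Prf1, -0.14 to 0.10 and -0.43 to 0.36 for the Nkg7 probes and -0.88 to 1.11 for Ifng. Mutant normal skin minus wild type ranged from -0.40 to 0.61 for Cd3e and -0.013 to 0.18 for Prf1, and hair loss minus wild type from -0.61 to 0.40 for Cd3e, -0.029 to 0.76 for Cd3g, -0.62 to 0.089 for Cd4, -1.79 to 0.54 for Gzma, -0.18 to 0.40 for Prf1, -0.61 to 0.18 for the second Nkg7 probe and -1.63 to 0.36 for Ifng.

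Counts over all probes moved more. With samples left out, 0 to 11 probes passed in the first comparison (9 without hair loss replicate 2, 11 without mutant normal skin replicate 3), 0 to 191 between mutant normal skin and wild type and 0 to 708 between hair loss and wild type (2 without hair loss replicate 1, 0 without wild type replicate 2). No filter gave 128 and 183 in the comparisons with wild type, the row block 856 and 1332, averaged title numbers 0 and 0, probes above background on all arrays 64 in the former, and only those groups 706 in the latter. For the difference in lesion effect the counts were 287 with normexp, 3 with quantile normalization and 4 on probes above background everywhere, and between the normal skins 465, 146 and 30, with 19 without a filter. The cause of these changes was not tested. The planned normexp on mean signals was not run because the scanner files give medians, which were used after seeing the files. Signal over background limits Cd8a, Klrk1, Gzmb, Gzma and Ifng.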
